A study of Mus musculus with 4 samples.

Results

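The nuclear genes for the subunits of the mitochondrial respiratory chain and ATP synthase were followed through 4 single-cell RNA libraries of mouse pancreatic ductal adenocarcinoma. The members were the protein-coding features whose names begin with Ndufa, Ndufb, Ndufc, Ndufs or Ndufv and a number, the Sdh genes, and names beginning with Uqcr, Cox4 to Cox8 or Atp5. Of 32285 features, 85 names matched, and Ndufb1-ps, which the annotation lists as noncoding, was left out. The 84 members comprised 35 genes of complex I, 4 of complex II, 8 of complex III, 20 of complex IV and 17 of ATP synthase (complex V). Ndufa4 and Ndufa4l2 were counted with complex IV. The 13 protein-coding genes of the mitochondrial genome served as a comparison: 7 of complex I, 1 of complex III, 3 of complex IV and 2 of complex V.

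The respiratory chain passes electrons from NADH (complex I) and succinate (complex II) through complexes III and IV to oxygen, pumping protons across the inner mitochondrial membrane, and ATP synthase uses the return flow of protons to make ATP. Complex II is built from nuclear genes alone, whereas the other complexes combine nuclear subunits with a few made inside the mitochondrion. The transcription factors NRF1 and GABP, an ETS-family factor, and YY1 are known to bind promoters of many of the nuclear subunits.

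Each group was 1 library, made from tumour tissue pooled from 3 animals and dissociated with enzymes. GPH received gemcitabine, paricalcitol and hydroxychloroquine, PH received paricalcitol and hydroxychloroquine, G received gemcitabine and control received PBS. Gemcitabine is a nucleoside analogue, paricalcitol activates the vitamin D receptor and hydroxychloroquine raises lysosomal pH. For GPH the label is cut short behind the gemcitabine dose (60 mg/kg), and the sample title gave the group. Strain, sex, age, tumour model and times of treatment are not given in the sources used here. The study asked whether paricalcitol with hydroxychloroquine sensitizes these tumours to gemcitabine.

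With 1 library per group no difference has a replicate check, no p-value can be given, and an effect of treatment cannot be told apart from a difference between animals or between library preparations. Values are unique molecular identifiers (UMIs, single captured RNA molecules) per 1000000 of the same cells' UMIs outside the mitochondrial genome (CPM). The 95% intervals cover counting error only. A gene counted as measured in a comparison at 20 CPM or more in either set of cells and 20 UMIs over both, and it was counted as higher or lower by size alone, at 1.5-fold.

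Cells were sorted into classes by how many marker genes of a type each cell held. After filtering, 4411 cells were kept in GPH, 13977 in PH, 12449 in G and 10074 in control. Median depth was 20103 UMIs per cell in GPH, 7862 in PH, 4610 in G and 9635 in control. More than 20% of UMIs were mitochondrial in 41.0% of the deposited barcodes of GPH, 12.7% of PH, 15.6% of G and 15.6% of control. Between 17 and 79 barcodes were shared by any pair of libraries. The vimentin-high class, with the mesenchymal filament gene Vim at 4200 CPM in GPH, 4636 in PH, 3894 in G and 4070 in control, held 1569 cells in GPH, 11303 in PH, 1802 in G and 8050 in control. The keratin-high class held 1984 cells of GPH and 1024 of G, against 39 of PH and 14 of control. Its ductal keratin gene Krt19 stood at 4720 CPM in GPH and 3100 in G, and the epithelial adhesion gene Epcam was low there, at 9.22 CPM in GPH and 13.02 in G. Y-linked genes summed to 12.9 CPM in the vimentin-high cells of GPH, 0.506 in PH, 9.27 in G and 0.0769 in control.

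Promoter windows for 67 of the 84 members were found in the RefSeq table on GRCm38.p6, each running from 250 bases before to 50 bases after a transcript start. The core letters of the NRF1 motif, GCGCATG or GCGCACG, lay in 18 of the 67 (26.9%), against 8.43% of 27025 promoters of the same length. Of these, GCGCATG lay in 13 and GCGCACG in 7, and where the site is palindromic its matches on opposite strands overlap. The ETS motif CCGGAAG lay in 16 of 67 (23.9%) against 9.14% of all, and the YY1 motif GCCATNTT in 14 of 67 (20.9%) against 6.20%. Both strands were searched, a match is a description of letters and not evidence of binding, and the members were not compared by it. The 4 windows below belong to genes that the results turn on: Ndufa4, among the lowest in GPH; Ndufb4, among the highest in PH; Sdhd, with the largest difference between keratin-high and vimentin-high cells; and Cox6a1, higher in GPH than in G among keratin-high cells. Printed 5′ to 3′ are only the bases that lie ahead of every annotated transcript start of the gene and outside exons of other genes, and all 4 genes lie on the minus strand. Capitals mark an NRF1 motif on either strand, or the ETS motif in its reverse complement (CTTCCGG). The windows are chr6:11907498-11907700 for Ndufa4, chr16:37654454-37654618 for Ndufb4, chr9:50603850-50603909 for Sdhd and chr5:115348982-115349129 for Cox6a1.
Ndufa4: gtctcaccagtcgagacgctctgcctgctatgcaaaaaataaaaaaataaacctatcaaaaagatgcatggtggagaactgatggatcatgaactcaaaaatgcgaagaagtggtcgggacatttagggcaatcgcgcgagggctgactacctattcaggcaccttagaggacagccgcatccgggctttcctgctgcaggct
Ndufb4: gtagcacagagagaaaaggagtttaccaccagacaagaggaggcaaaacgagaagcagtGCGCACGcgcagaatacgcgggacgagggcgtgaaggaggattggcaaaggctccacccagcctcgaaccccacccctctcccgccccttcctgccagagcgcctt
Sdhd: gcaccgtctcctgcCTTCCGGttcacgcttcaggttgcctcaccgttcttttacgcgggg
Cox6a1: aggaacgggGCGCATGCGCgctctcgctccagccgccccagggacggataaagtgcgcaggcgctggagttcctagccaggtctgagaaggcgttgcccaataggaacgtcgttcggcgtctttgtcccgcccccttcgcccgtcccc
The printed bases of Cox6a1 held 2 overlapping NRF1 matches, 1 on each strand, those of Ndufb4 1 NRF1 match, those of Sdhd an ETS match, and those of Ndufa4 none of the letters searched. The full RefSeq windows also held an NRF1 match for Sdhd and an ETS match for Cox6a1, in bases that are not printed.

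The summed RNA of the 84 members was lowest in GPH in each class that GPH shared with another library. In vimentin-high cells it was 24062 CPM in GPH, against 34278 in PH, 35953 in G and 35092 in control. In keratin-high cells it was 39597 CPM in GPH against 48869 in G. In T cells it was 21166 CPM in GPH, from 61 cells only, against 28309 in PH, 32593 in G and 31322 in control. PH, G and control thus lay close together in the vimentin-high class, and GPH stood apart below them. Macrophages held 32440 CPM in PH and 33190 in G, against 35094 in control, and NK cells held 29448 in G against 30994 in control. In G alone enough cells of other types were present: dendritic cells held 32058 CPM, B or plasma cells 21940 and neutrophils 20388.

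The 13 mitochondrial genes went another way. In vimentin-high cells they summed to 64123 CPM in GPH, 65089 in PH, 61136 in G and 47411 in control, and control was the lowest. Over the alternative settings the log2 ratio of this sum in GPH against control lay between 0.19 and 1.01, and it was 0.44 with the settings used here. In GPH against PH it lay between -0.245 and 0.61, the highest value coming without the filter on mitochondrial UMIs. Macrophages also had their lowest sum in control, with 46603 CPM in PH and 40029 in G against 29038 in control, and so did T cells, with 40042 in GPH, 44754 in PH and 38325 in G against 31348 in control. The ratio of nuclear to mitochondrial transcripts of the chain in vimentin-high cells was therefore 0.375 in GPH, 0.527 in PH, 0.588 in G and 0.740 in control. The filter on mitochondrial UMIs bounds the mitochondrial sum, and the share of barcodes it removed was largest in GPH.

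**Figure D1:**
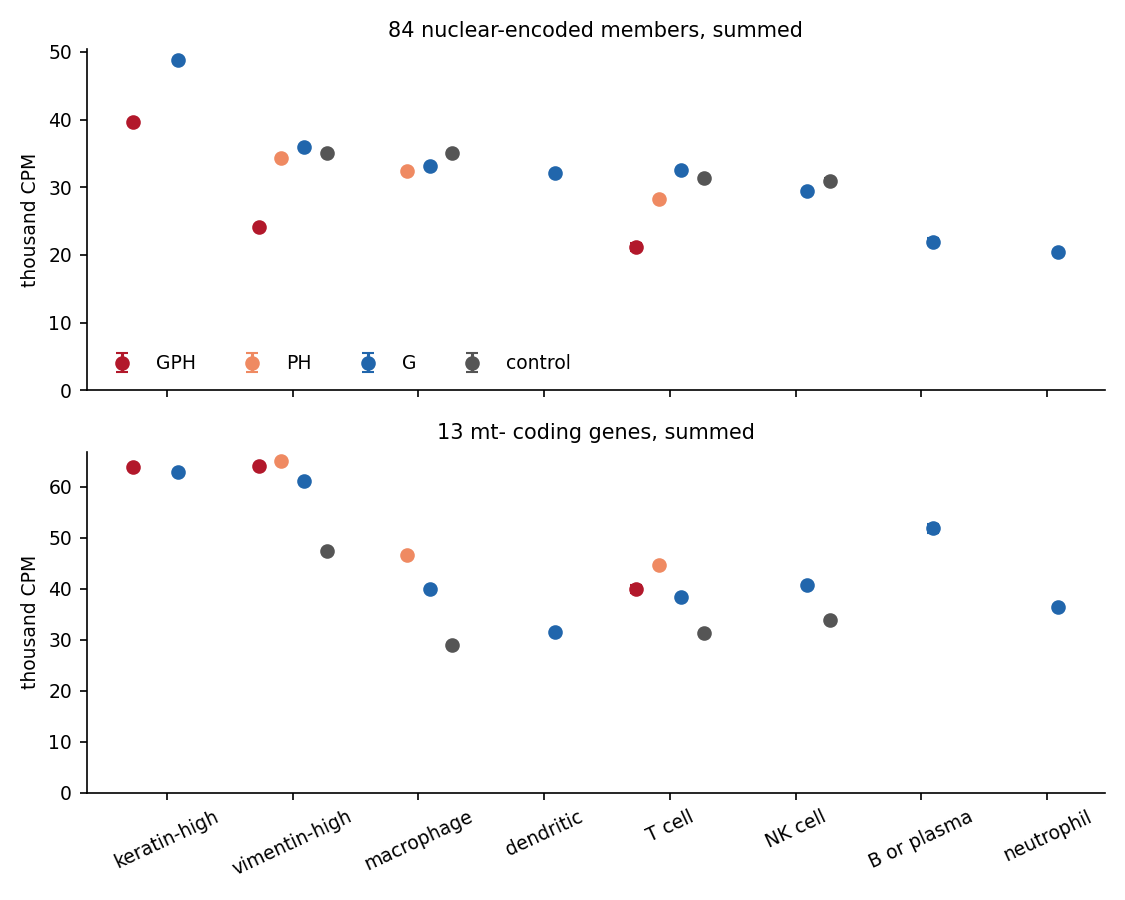
Summed CPM (axis in units of 1000) of the 84 nuclear members (upper panel) and of the 13 mitochondrial coding genes (lower panel) in each cell class and library; error bars, mostly smaller than the points, are exact Poisson 95% intervals over 1 library. In vimentin-high cells GPH lay at 24062 CPM for the nuclear members, against 34278 to 35953 in the other libraries, while for the mitochondrial genes control was the low one at 47411.

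In vimentin-high cells of GPH against control, most members were lower. Of 77 measured members, 37 were at least 1.5-fold lower and 0 were higher by that size, whereas of all 5381 measured genes 11.0% were lower and 30.5% higher. The median log2 ratio of the members was -0.55 (order-statistic interval -0.63 to -0.45), and 70 of 77 lay below 0. The median of all measured genes was 0.25. Among genes at 100 CPM or more it was -0.06, with 69 members at a median of -0.60 and 19.1% of all such genes lower by 1.5-fold. The same cells of GPH against PH gave 27 of 76 members lower and 0 higher, with a median of -0.47, where 8.52% of measured genes were lower and 28.2% higher. Against G, 33 of 76 were lower and 0 higher, with a median of -0.53, where 8.52% were lower and 32.5% higher. These 3 comparisons share the GPH cells, and the medians of all measured genes in the comparisons with PH and G were 0.22 and 0.31.

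Complex I, the entry point for NADH, had the lowest median in GPH against control, -0.60, with 18 of its 35 measured members lower by 1.5-fold. Ndufa5, an accessory subunit of the matrix arm, stood at 217 CPM in GPH, 385 in PH, 400 in G and 409 in control, a log2 ratio of GPH to control of -0.91 (-0.96 to -0.87). Ndufc1, a subunit of the membrane arm, stood at 380 CPM in GPH against 692 in control. Ndufb3, another membrane-arm subunit, stood at 103 CPM in GPH, 186 in PH, 204 in G and 182 in control. The 3 other libraries lay close together in Ndufa5 and Ndufb3, and GPH lay apart below them. The core subunits, which carry the electron path, were less uniform. Ndufv1, which binds NADH, was at 134 CPM in GPH, 135 in PH, 124 in G and 143 in control. Ndufs8, an iron-sulfur subunit, was at 99.1 CPM in GPH, 121 in PH, 137 in G and 169 in control, and Ndufv2 at 144 in GPH, 185 in PH, 176 in G and 230 in control. Ndufs1, the largest core subunit, lay near the floor of 20 CPM, between 19.4 and 24.1 CPM in all 4 libraries.

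Complex II, which also belongs to the citric acid cycle, had a median of -0.02 in GPH against control, with 1 of 4 genes lower by 1.5-fold. That gene was Sdhb, the iron-sulfur subunit, at 85.7 CPM in GPH, 105 in PH, 109 in G and 143 in control, so control stood above the other 3. Sdha, the flavoprotein that oxidizes succinate, was at 49.0 CPM in GPH, 49.4 in PH, 41.9 in G and 40.7 in control. Sdhc, a membrane anchor, was at 51.6 CPM in GPH, 62.7 in PH, 52.5 in G and 49.6 in control. Sdhd, the other anchor, was at 38.9 CPM in GPH, 49.0 in PH, 42.8 in G and 41.6 in control. Apart from Sdhb the genes of this complex thus differed little between the libraries.

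Complex III, which oxidizes ubiquinol, had a median of -0.51 with 4 of 8 genes lower by 1.5-fold. The small subunit gene Uqcrb was at 224 CPM in GPH against 437 in G, and Uqcr10 at 466 in GPH, 880 in G and 722 in control. The core subunit gene Uqcrc1 was at 108 CPM in GPH, 100 in PH, 95.3 in G and 115 in control. Uqcrfs1, the Rieske iron-sulfur protein, was at 80.2 CPM in GPH, 91.2 in PH, 91.3 in G and 105 in control. Uqcrb and Uqcr10 were thus further below their level in G than Uqcrfs1 was, whereas Uqcrc1 lay above its level in G.

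Complex IV, cytochrome c oxidase, had a median of -0.55 with 6 of 13 measured genes lower by 1.5-fold, and it also held the member furthest the other way. Ndufa4, once placed in complex I and now known as a subunit of complex IV (chr6:11900292-11907497, mm10, minus strand), was at 529 CPM in GPH, 1206 in PH, 1222 in G and 993 in control. Its log2 ratio was -0.91 (-0.94 to -0.88) for GPH against control and -1.21 (-1.24 to -1.17) for GPH against G. The lowest log2 ratio of the measured members in GPH against control, -1.45, was that of Cox7a1, a muscle form of low level. Cox7a1 stood at 8.61 CPM in GPH against 23.4 in control. Cox7a2l, which takes part in joining complexes III and IV into supercomplexes (chr17:83501918-83517330, minus strand), was at 314 CPM in GPH, 265 in PH, 213 in G and 217 in control. That is a log2 ratio of 0.54 (0.49 to 0.58), just under 1.5-fold. Cox4i1, the first nuclear subunit in the assembly of the complex (chr8:120668222-120674207, plus strand), was at 691 CPM in GPH, 900 in PH, 766 in G and 564 in control, all 3 treated libraries above control. Cox6b1 was at 402 CPM in GPH, 627 in PH, 695 in G and 691 in control, and Cox7a2 at 446 in GPH, 753 in PH, 908 in G and 767 in control, so in both GPH alone was low.

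Complex V, ATP synthase, had a median of -0.47 with 8 of 17 genes lower by 1.5-fold. Atp5g1, Atp5g2 and Atp5g3 encode the same mature c subunit of the rotor ring, and they did not move alike. Atp5g2 was at 829 CPM in GPH, 1200 in PH, 1261 in G and 1515 in control, and Atp5g1 at 431 in GPH, 674 in PH, 727 in G and 759 in control. Atp5g3 was at 201 CPM in GPH, 304 in PH, 293 in G and 258 in control. The genes of the alpha and beta subunits differed from these. Atp5b, the beta subunit, was at 375 CPM in GPH, 389 in PH, 370 in G and 314 in control, a log2 ratio of 0.26 (0.22 to 0.29) for GPH against control. Atp5a1, the alpha subunit, was at 196 CPM in GPH, 272 in PH, 228 in G and 188 in control. Both were thus in GPH at or above their level in control, and under the scaling by the median ratio, which lowers every ratio by 0.25, Atp5a1 lies below 0.

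**Figure D2:**
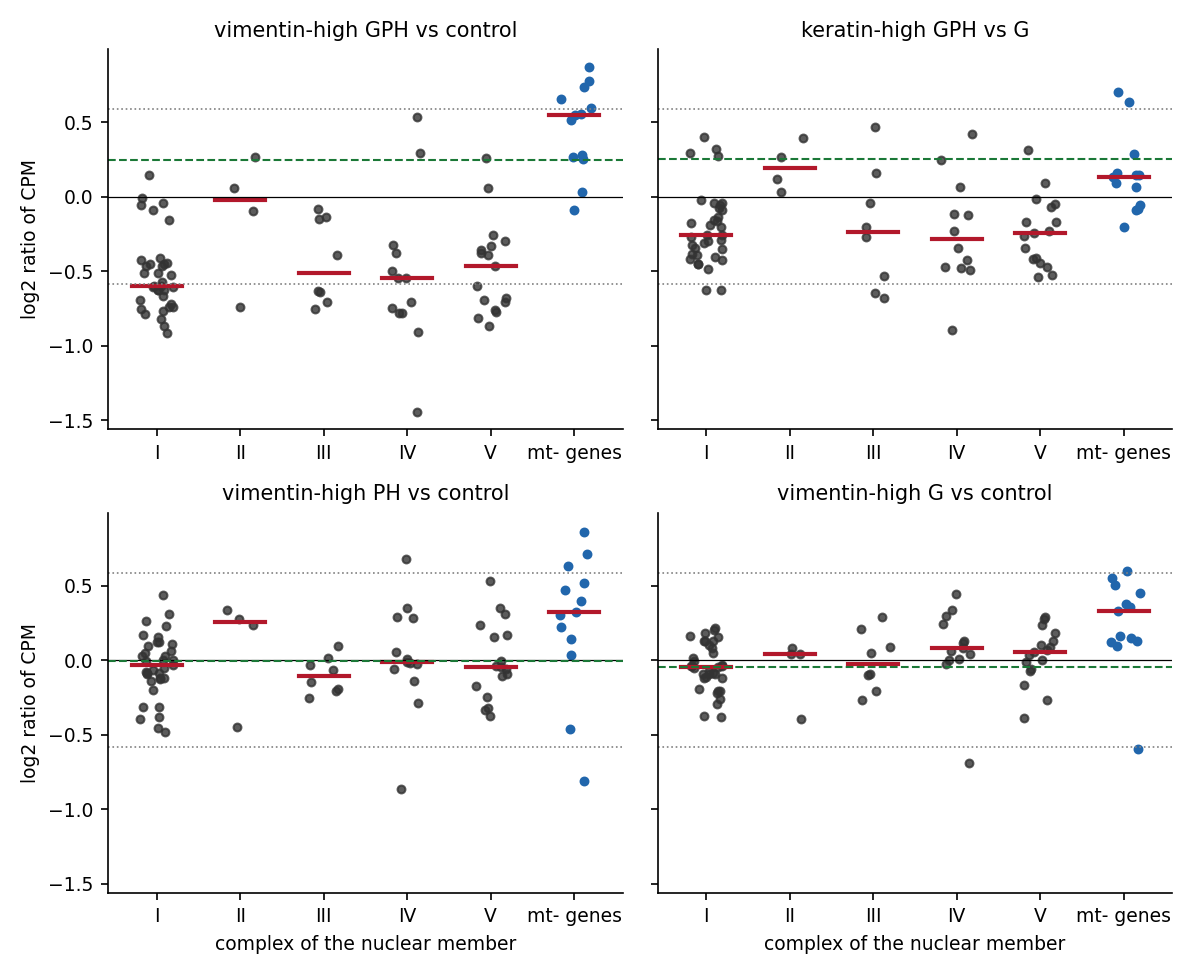
Log2 ratio of CPM for each measured nuclear member (dark points, by complex) and for the 13 mitochondrial coding genes (blue points) in 4 comparisons, each with 1 library per side; red bars are medians, dotted lines 1.5-fold and the green dashed line the median of all measured genes. In vimentin-high cells of GPH against control the medians of complexes I, III, IV and V lay between -0.60 and -0.47 and that of complex II at -0.02, while in PH and G against control all complex medians lay between -0.10 and 0.26.

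The lower members in GPH were mostly short transcripts, and short transcripts in general were lower there. The members had a median mRNA length of 760.5 bases, against 1947.5 for all annotated features, by the best-supported annotated transcript of each gene. In GPH against control, members under 600 bases had a median log2 ratio of -0.60 (22 genes), and other genes of that length, ribosomal protein genes left out, -0.55 (72 genes). From 600 to under 1000 bases the medians were -0.65 for 26 members and -0.53 for 375 other genes. From 1000 to under 2000 bases they were -0.39 for 21 members and -0.19 for 1266 other genes, and from 2000 to under 4000 bases 0.06 for 6 members and 0.28 for 1770 other genes. Below 4000 bases members thus lay below other genes of like length by 0.04 to 0.23 (log2), and the part of length in the difference was not tested. The 2 members of 4000 bases or more, Ndufb2 (4371 bases) and Atp5g1 (4715 bases), had a median of -0.75 against 0.67 for other genes. These lengths are those of the chosen annotated transcript, and which transcripts the cells held was not measured. Across genes, which are not independent, Spearman's rho between mRNA length and the log2 ratio was 0.32 over the 77 members and 0.58 over 5301 other genes. It was 0.17 and 0.41 in PH against control, and -0.07 and 0.24 in G against control.

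**Figure D3:**
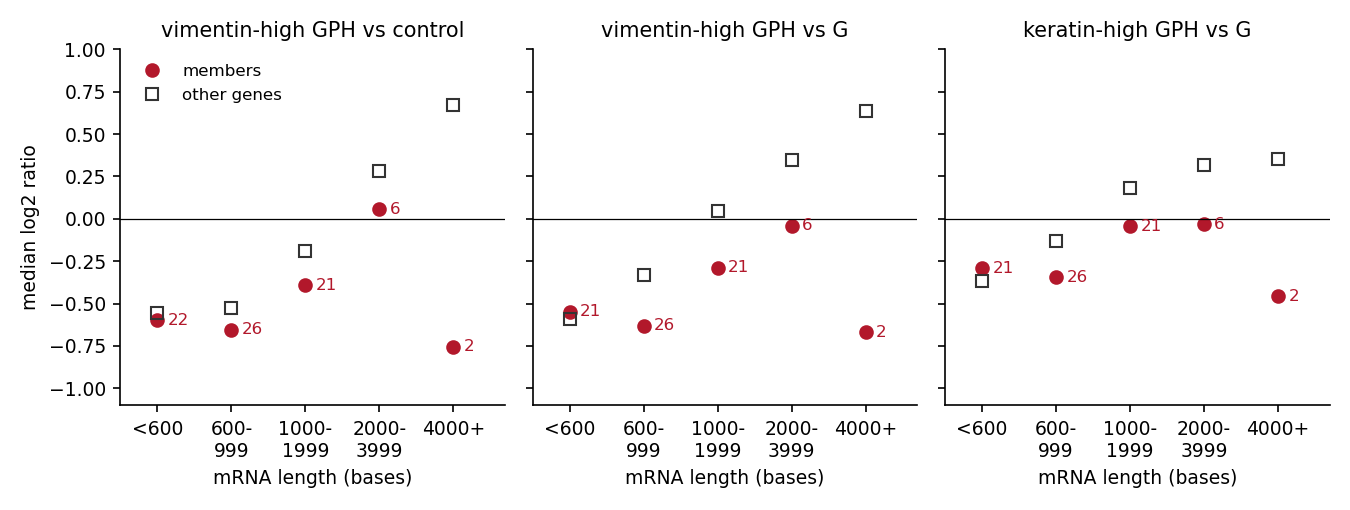
Median log2 ratio of members (red, with the number of genes) and of other genes without ribosomal protein genes (open squares) by mRNA length in 3 comparisons with GPH on top. In GPH against control members under 1000 bases lay at -0.60 and -0.65 and those of 2000 to under 4000 bases at 0.06, beside -0.55, -0.53 and 0.28 in other genes.

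Other measures moved with GPH in the same cells. The nuclear noncoding RNA Malat1 stood at 50111 CPM in vimentin-high cells of GPH, 13296 in PH, 15159 in G and 25984 in control. Neat1, another nuclear RNA, stood at 2830 CPM in GPH, 734 in PH, 474 in G and 312 in control. Ribosomal protein genes made up 29.1% of UMIs in GPH, 35.5% in PH, 35.7% in G and 33.1% in control. Restricted to cells with Malat1 at or under 3% of UMIs, a limit added after the data were seen, the median of the members in GPH against control was -0.44 and 15 of 77 were lower by 1.5-fold, where 8.37% of all measured genes were lower in those cells. Their part in the difference was not tested.

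Cells with a high mitochondrial share held fewer nuclear transcripts of the chain, in all 4 libraries. In vimentin-high cells of GPH the members summed to 24932 CPM at up to 5% mitochondrial UMIs, 25216 at 5 to 10%, 12975 at 10 to 20%, and 6907 in the 20 to 40% that the filter removes. In control they summed to 35558 CPM at up to 5%, 34682 at 5 to 10%, 24909 at 10 to 20% and 11638 at 20 to 40%. Within each of these 4 bins GPH was the lowest library. Over these 4 bins Malat1 stood higher with each step of the mitochondrial share in both libraries, and higher in GPH than in control within each of the 4. Above 40% it fell back, to 75885 CPM in GPH and 88216 in control. It stood at 43465 CPM in GPH against 20585 in control at up to 5%, and at 123048 CPM in GPH against 90994 in control at 20 to 40%. Its part in the difference within bins was not tested. Cell by cell, the median was 23058 CPM in GPH, 34407 in PH, 35926 in G and 34278 in control. The 10th percentile of the cells was 5646 CPM in GPH, against 24420 in PH, 23962 in G and 23149 in control. The upper quartile of GPH, 28552 CPM, was still below the lower quartile of each of the others, 29042 in PH, 29105 in G and 29056 in control, so the quartile ranges did not overlap.

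**Figure D4:**
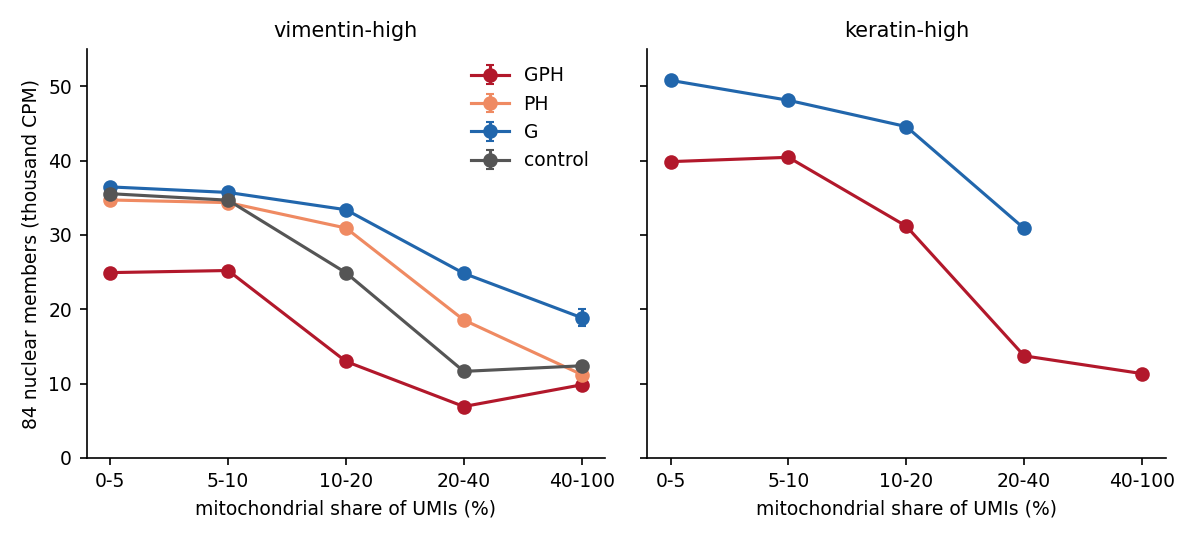
Summed CPM (axis in units of 1000) of the 84 nuclear members in cells binned by their mitochondrial share of UMIs, for vimentin-high cells (left) and keratin-high cells (right), with Poisson 95% intervals; the 2 bins above 20% hold barcodes the filter removes. GPH ran below the other libraries up to 40% in vimentin-high cells (24932 CPM at up to 5%, against 35558 in control) and below G in every keratin-high bin with values for both.

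Subsets of the vimentin-high class gave like values. In GPH, cells with Dcn or Dpt, genes of mesenchymal matrix proteins, held 24168 CPM and those with neither 23592, and in control cells with either held 34890 CPM and those with neither 35382. Cells with cycle markers held 24732 CPM in GPH and those without 23594, and in control those with them held 36047 CPM and those without 33840. The difference between GPH and control was thus larger than any difference between these subsets within either library.

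In vimentin-high cells of PH and of G the members as a group lay near their level in control. In PH against control, 1 of 77 was higher and 1 lower by 1.5-fold, where 5.62% of measured genes were higher and 7.80% lower, and the median was -0.03 (-0.08 to 0.02). In G against control, 0 were higher and 1 lower, where 4.89% were higher and 5.90% lower, and the median was 0.01 (-0.04 to 0.06). The member lower in both was Cox7a1, the muscle form of a complex IV subunit, at 12.9 CPM in PH and 14.5 in G, against 23.4 in control. In GPH it was lower still, at 8.61 CPM. Single members still differed by more than counting error. Cox4i1 was the one higher in PH, with a log2 ratio of 0.68 (0.66 to 0.69) in PH and 0.44 (0.42 to 0.47) in G. Atp5a1 had 0.53 (0.51 to 0.56) in PH and 0.28 (0.23 to 0.32) in G. Ndufb4, a membrane-arm subunit of complex I, stood at 295 CPM in PH and 238 in G, against 218 in control. Sdhb had -0.45 (-0.48 to -0.41) in PH and -0.39 (-0.46 to -0.33) in G. PH and G share the control library here.

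The immune classes gave small medians against control. Among macrophages of PH, 1 of 77 measured members was higher (12.4% of measured genes were) and 4 lower (12.4% were), with a median of -0.11. Among macrophages of G, 2 were higher (19.2%) and 4 lower (18.8%), with a median of -0.15. Among T cells of PH, 0 of 76 were higher (14.4%) and 3 lower (8.89%), with a median of -0.16, and among those of G none were higher (9.47%) or lower (12.6%), with a median of 0.03. Among NK cells of G, 0 of 76 were higher (16.3%) and 3 lower (17.6%), with a median of -0.13. With these settings at most 4 members of a class passed 1.5-fold in one direction, and over the alternatives up to 10 did, in macrophages of G with stricter gates. The share of all measured genes lower under those gates is not given here, and with the main settings it was 18.8%. The count of 10 is therefore not read as a result about the members. Control held 201 macrophages, 601 T cells and 101 NK cells.

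Sdhb and Cox4i1 differed from control in one direction in every class. Sdhb stood at 122 CPM in macrophages of PH and 105 in those of G, against 200 in control. It stood at 82.3 CPM in T cells of PH and 99.5 in those of G, against 142 in control, and at 68.2 in NK cells of G against 141 in control. Cox4i1 stood at 1013 CPM in macrophages of PH and 1011 in those of G, against 751 in control, at 874 in T cells of PH and 820 in those of G against 603 in control, and at 835 in NK cells of G against 627 in control. The classes of 1 library share its preparation and its free RNA, and every one of these comparisons uses control. Cox7a2l was higher in macrophages of PH (188 CPM) and G (231 CPM) than in those of control (121 CPM), a log2 ratio of 0.64 in PH and 0.93 in G. In vimentin-high cells its levels in G and control, 213 and 217 CPM, were close.

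Keratin-high cells could be compared between GPH and G only. Of 76 measured members, 5 were lower in GPH by 1.5-fold and 0 higher, where 2.94% of measured genes were lower and 19.0% higher. The median was -0.24 (-0.32 to -0.16), against 0.25 for all measured genes. The 5 were Ndufa4 at 786 CPM in GPH against 1463 in G, Uqcrb at 531 against 849, Uqcr10 at 1039 against 1626, Ndufa5 at 280 against 433 and Ndufb3 at 172 against 266. All 5 were also at least 1.5-fold lower in GPH than in G among vimentin-high cells, which come from the same libraries. In those cells 33 of 76 measured members and 8.52% of all measured genes were lower by that size. At the other end were Uqcrc1 at 192 CPM in GPH against 138 in G, a log2 ratio of 0.47 (0.42 to 0.52), and Cox6a1, the ubiquitous form of subunit VIa, at 518 against 387. Ndufv1 was at 156 CPM against 118 and Sdhb at 137 against 105. Complex II was the only one of the 5 complexes with a median above 0, at 0.19, the others lying between -0.29 and -0.24. Median depth was 44268 UMIs per keratin-high cell in GPH and 30842 in G. Malat1 stood at 9872 CPM in GPH and 3096 in G. Among cells with 5000 to 20000 UMIs the median of the members was -0.74, with 48 of 76 lower by 1.5-fold, where 8.83% of all measured genes were lower in those cells. The value thus depends on which cells are taken. Sdhb had a log2 ratio of -0.27 there.

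Within a library the keratin-high cells held more of the members than the vimentin-high cells. In GPH, 46 of 76 measured members were higher by 1.5-fold and 0 lower, where 25.3% of measured genes were higher and 29.1% lower, and the median was 0.75 (0.58 to 0.83). In G, 28 of 76 were higher and 0 lower, where 24.2% were higher and 25.4% lower, and the median was 0.44 (0.31 to 0.55). The classes had been chosen by keratin and mesenchymal markers, and none of the members was used for that. The keratin-high cells held mesenchymal marker RNA too, with Vim at 2480 CPM against 4200 in vimentin-high cells of GPH and at 1568 against 3894 in G. S100a6, a calcium-binding protein gene on the same marker list, was higher in them, at 32809 CPM against 6747 in GPH and 32269 against 17053 in G. Sdhd was furthest apart, at 136 CPM in keratin-high against 38.9 in vimentin-high cells of GPH and at 112 against 42.8 in G. Cox5a, a matrix-side subunit of complex IV, was at 845 CPM against 262 in GPH and 922 against 454 in G. Atp5g3 was at 528 against 201 in GPH and 634 against 293 in G. Atp5g2, which encodes the same protein as Atp5g3, was level between the classes, at 814 CPM against 829 in GPH and 1181 against 1261 in G. Cox7a2l too was nearly level in GPH, at 304 against 314. The sum of the 13 mitochondrial genes did not share this difference, with a log2 ratio of -0.01 in GPH and 0.04 in G. Singly these genes were unlike each other, with a median log2 ratio of -0.23 in GPH and -0.20 in G. The lowest was mt-Nd2, at -0.99 in GPH and -0.73 in G, and the highest mt-Co1, at 0.39 in GPH and 0.43 in G. Keratin-high cells were deeper, with median UMIs of 44268 against 10985 in GPH and 30842 against 9126.5 in G. Malat1 was lower in them, at 9872 CPM against 50111 in GPH and 3096 against 15159 in G. The part of depth or of Malat1 in the difference was not tested.

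Neutrophils of G stood at the low end. Of 76 measured members, 55 were lower than in vimentin-high cells of the same library and 0 higher, where 44.2% of measured genes were lower and 37.0% higher, and the median was -0.94 (-1.099 to -0.82). Ndufa5 was at 80.7 CPM in neutrophils against 400 in vimentin-high cells, and Atp5g2 at 320 against 1261. Ndufa3, an accessory subunit of complex I, was the one named member on the other side, at 266 CPM against 189. Neutrophils had a median of 1118 UMIs per cell, and ribosomal protein genes were lower there too, with a median log2 ratio of -1.64.

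The tissue-restricted forms of complex IV subunits were nearly absent. Cox4i2, Cox6b2, Cox7b2, Cox8b, Cox8c and Ndufa4l2 stayed below 20 CPM in every library and class with at least 50 cells, and Cox7b2 had 0 UMIs in all of them. Cox6b2, the testis form of subunit VIb, came nearest to that level, at 18.6 CPM in dendritic cells of G. Cox4i2, the form known from lung, was at 0.255 CPM in vimentin-high cells of GPH, 0.142 in PH, 0.496 in G and 0.183 in control. Ndufa4l2, which is known to be induced by hypoxia, was at 0.204 CPM in GPH, 0.275 in PH, 1.49 in G and 0.557 in control in those cells, and its highest level was 10.9 CPM, in T cells of control. Among the forms that passed 20 CPM, Cox7a1, the heart and muscle form of subunit VIIa, reached 39.5 CPM in macrophages of control. Cox6a2, the heart and muscle form of subunit VIa, stood at 96.4 CPM in dendritic cells of G against 0.842 in vimentin-high cells there. NK cells held some of it too, at 12.2 CPM in G (29 UMIs) and 9.30 CPM in control (6 UMIs). The dendritic cells of G were split by Siglech, a gene of plasmacytoid dendritic cells, after these values were seen. The 22 cells with Siglech held 140 UMIs of Cox6a2 (1155 CPM, 972 to 1363) and 167 cells without it held 0. At 3 counts, that 0 allows up to 2.25 CPM. In control, 3 such cells held 37 UMIs (4305 CPM) and 4 without Siglech held 0. In PH, 2 such cells held 2 UMIs (201 CPM, 24.3 to 725) and 8 without Siglech held 0. The ubiquitous Cox6a1 was at 347 CPM in the G cells with Siglech and 304 CPM in those without. In control it had 0 UMIs in the cells with Siglech and 22 in those without, over too few cells to compare.

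The mitochondrial genes differed from each other by library. The neighbours mt-Atp8 and mt-Atp6, both of complex V, overlap in the genome, so how reads between them were assigned bears on each. In vimentin-high cells mt-Atp8 came to 7.99% of mt-Atp6 UMIs in GPH, 4.57% in PH, 5.59% in G and 12.4% in control. In T cells it was 7.05% in GPH, 4.87% in PH, 6.997% in G and 13.4% in control, and in macrophages 3.67% in PH and 6.42% in G against 11.6% in control. In each of these classes control was the highest and PH the lowest. For mt-Nd4l and mt-Nd4, also overlapping, the share in vimentin-high cells was 53.3% in GPH, 50.4% in PH, 78.3% in G and 76.5% in control. Keratin-high cells were lower than vimentin-high cells of their own library in both shares. For mt-Nd4l they stood at 38.5% in GPH and 50.0% in G, and for mt-Atp8 at 7.60% in GPH and 4.49% in G. Among single genes in GPH against control, mt-Nd5 had the highest log2 ratio, 0.87, and mt-Atp8 the lowest, -0.09.

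**Figure D5:**
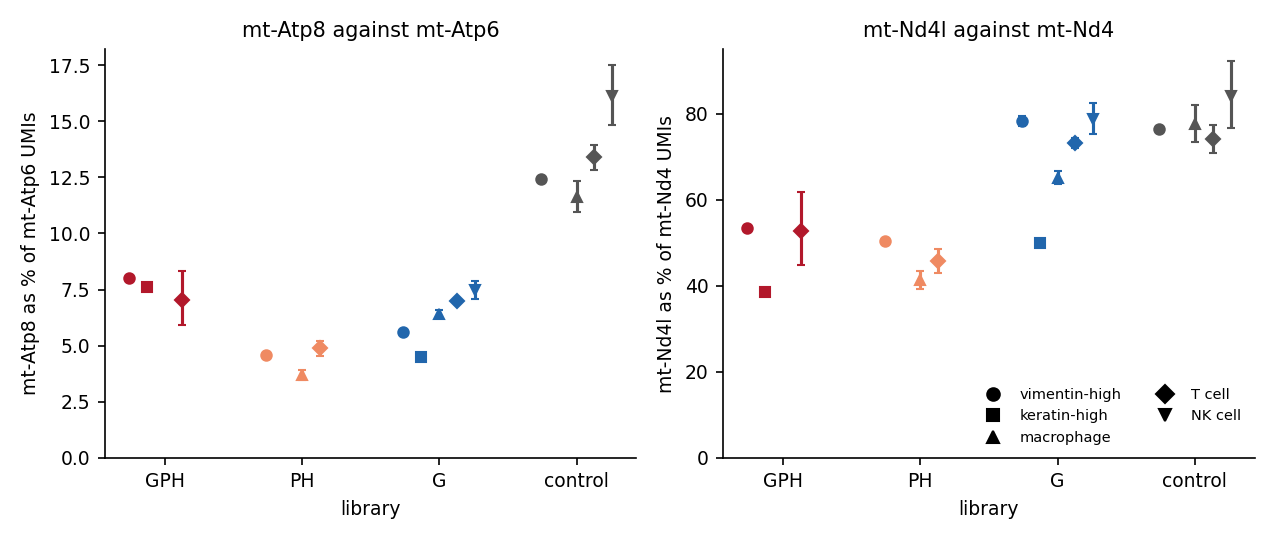
UMIs of mt-Atp8 as a percentage of mt-Atp6 (left) and of mt-Nd4l as a percentage of mt-Nd4 (right) by library, with 1 marker shape per cell class and exact 95% counting intervals. For mt-Atp8 every control class lay at 11.6% or above and every class of the other libraries at 7.99% or below.

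Other mitochondrial genes were described with the lists chosen for this purpose. In vimentin-high cells of GPH against control, 36 of 73 measured mitochondrial ribosome genes were lower and 0 higher, with a median log2 ratio of -0.57, close to that of the members. Their lowest was Mrpl54 at 56.0 CPM in GPH against 117 in control. Of 12 measured complex IV assembly genes 5 were lower, the lowest being Higd1a at 112 CPM in GPH against 294 in control. None of 17 citric acid cycle genes passed 1.5-fold in either direction, and their median was 0.02, with Ogdh, a subunit of the 2-oxoglutarate dehydrogenase complex, at 50.5 CPM in GPH against 34.7 in control. For these lists too, 30.5% of all measured genes were higher and 11.0% lower, with a median of 0.25. Of 6 measured regulators 3 were higher, the highest being Pprc1, a coactivator of the PGC-1 family, at 28.6 CPM in GPH against 11.0 in control, and 1 was lower, Ssbp1 at 100 against 168. Of 7 measured genes of dissociation and stress 4 were higher and 0 lower, with a median of 0.75 and Hsph1, a heat shock protein, at 175 CPM in GPH against 66.2 in control.

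Over 16 pairs of library and class, the genes whose log2 CPM went most closely with a member were in part other members. The pairs share libraries and depth, so these correlations only describe the levels. Ndufa4 went most closely with Nop10 (Pearson's r 0.96) and Ndufa13 (0.94). Ndufa5 went with Mrps17 (0.97), Atp5j2 (0.96) and Ndufb10 (0.96), and Atp5g1 with Uqcr11 (0.98). Cox7a2l, which stood apart in GPH, had no member among its 5 closest genes and was led by Med1 (0.89). Cox4i1 was led by Glud1 (0.92), with Atp5a1 (0.82) the only member among its 5.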

How the data were processed

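The authors deposited raw UMI counts per gene and barcode (32285 features) with no normalization. The submitters' processing notes give Cell Ranger 6.1 and mm10, the file headers give version 7.0.1, and whether intronic reads were counted is not given in the sources used here. Deposited barcodes had at least 500 UMIs.

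Barcodes were kept with at least 500 UMIs, 300 genes and at most 20% mitochondrial UMIs. Scrublet (scanpy 1.11.5) set automatic thresholds that called 2 doublets in GPH, 0 in PH, 1377 in G and 0 in control, so the highest scores were removed instead at 0.8% per 1000 cells (168 barcodes of GPH, 2056 of PH, 1573 of G, 977 of control). Each cell was classed by the number of markers with a UMI, with thresholds set after marker counts were seen: leukocyte 2 of 4, T cell 3 of 8, NK cell 3 of 7, macrophage 4 of 11, neutrophil 3 of 6, dendritic 2 of 7, B or plasma 3 of 7, keratin-high 5 of 9 without leukocyte markers, and vimentin-high 3 of 4 with no Xist and at most 3 keratin markers. Cells passing 2 gates were left out, and the authors' own cell types were not used here.

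UMIs were summed per library and class. CPM left mitochondrial UMIs out of the total. Levels needed 50 cells and comparisons 100 in both sets. Ratios carry exact conditional binomial, levels exact Poisson, and medians order-statistic 95% intervals. The intervals were checked only on simulated Poisson counts, which hold no variation between cells, animals or libraries. Gene lengths and types are from GENCODE vM21 (mm10), promoters from RefSeq (GRCm38.p6). The members, lists and alternatives were chosen with earlier results of these data known. Named were the 8 highest and 8 lowest members of a comparison at 50 CPM or more, ranked by the interval bound nearest to 0 (a few are printed), members with paralogues, core subunits, the Sdh and mitochondrial genes, and the highest or lowest gene of other lists. The work used scipy 1.17.1 and pandas 2.3.3 under Python 3.11.15.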

Additional observations from a re-analysis of the deposited data

How the results depend on the processing

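Of 17 alternatives, 2 (limits on Malat1 and on the ribosomal protein share) were added after the data were seen. The median log2 ratio of the members stayed below 0 in vimentin-high cells of GPH against control, PH and G and in keratin-high cells of GPH against G under every alternative run. No paired analysis was possible because each group has 1 library, and no library could be left out. Depth per class and 1 library per group limit every value, and agreement between settings says nothing about other animals.

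Counts of lower members in this paragraph stand without the share of all measured genes in the same setting. That share also moved between settings, so a changed count is not read as a result about the members. With ribosomal protein UMIs also left out of the total, the medians in vimentin-high cells were -0.63 for GPH against control, -0.61 against PH, -0.67 against G, 0.023 for PH and 0.065 for G against control, and in keratin-high cells -0.39 with 16 lower. Scaling by the median ratio gave vimentin-high medians of -0.79 with 57 lower against control, -0.69 with 49 lower against PH and -0.84 with 57 lower against G, a keratin-high median of -0.49 with 28 lower, and -0.053 for NK cells of G. In the GPH comparisons this scaling lowers the ratio of every gene, so the shares of all measured genes given above do not apply to these counts. With each cell given the same weight, the vimentin-high medians were -0.63 against control, -0.63 with 42 lower against PH and -0.67 against G, and 0.051 for PH against control, with 9 lower in keratin-high cells and a median of -0.077 for T cells of PH. In cells of middle depth the keratin-high median was -0.74 with 48 lower, and T cells had -0.069 in PH and -0.050 in G. Stricter gates gave -0.22 for macrophages of PH, and leaving out cells with cycle markers -0.10 for T cells of PH. In cells with Dcn or Dpt, medians against control were -0.10 in PH and -0.069 in G, with 12 lower for GPH against PH and 19 against G. In cells with neither, they were 0.068 for G against control, -0.57 for GPH against PH and -0.65 against G. With Malat1 at most 3%, they were -0.077 for PH against control, -0.44 with 15 lower for GPH against control, -0.31 with 7 lower against PH and -0.38 with 17 lower against G. With ribosomal protein shares of 25 to 40%, GPH against PH gave -0.36 with 15 lower, and 3 were lower in keratin-high cells. The sign of the median against control changed with the setting in vimentin-high cells of PH (below 0 in 13 settings, above 0 in 4) and of G (below in 6, above in 11) and in T cells of G (below in 2, above in 13). The medians of macrophages of PH and G, T cells of PH and NK cells of G stayed below 0 in every setting run. The counts of lower members in immune cells moved as follows. Without doublet removal, 8 were lower in macrophages of G, 8 in NK cells of G and 3 in T cells of G. With stricter gates, 10 were lower in macrophages of G, 7 in T cells of PH and 1 in T cells of G. With no floor beyond 1 UMI, 7 were lower in macrophages of PH and 2 in T cells of G, and in vimentin-high cells 4 for PH against control. With each cell given the same weight, 6 were lower in NK cells of G and 1 in T cells of G. In T cells of PH, 6 were lower with the Malat1 limit, 5 with the ribosomal protein limit and 1 without cycling cells, and in T cells of G 2 at middle depth and 1 without cycling cells. Vimentin-high cells of PH and G against control had 0 lower among members at 100 CPM or more, and G also with the Malat1 limit and in cells with neither Dcn nor Dpt. Counts of higher members lay between 0 and 3 in every comparison and setting run. The cause of these changes was not tested. Cox7a1 in T cells of PH against control changed from a log2 ratio of 1.01 to -0.27 without doublet removal, -0.24 with stricter gates and -0.29 with the ribosomal protein limit. With the main settings it lay below 20 CPM in both libraries, at 15.1 CPM (29 UMIs) in PH. It was thus not counted as measured in that comparison, and its ratio rests on few UMIs. Comparisons that fell under 100 cells were not run: NK cells in 7 settings, and macrophages at middle depth and with the ribosomal protein limit.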
